A study of Drosophila melanogaster with 44 samples.

Results

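Df(2L)ED3 is a deletion on the left arm of chromosome 2 of Drosophila melanogaster. The interval treated as deleted here is a stretch of neighbouring genes from noc to CG15263 in the gene order of Release 6. Its ends were set on expression in this series, so that 1 copy of the genes at the ends is assumed. The array measured 49 of these genes with a probe set that names 1 gene, out of 11889 genes with such a probe set on a chromosome arm. Of the 103 genes annotated between the same ends, 66 are protein-coding, and 17 of those had no probe set that names them alone. For each gene the probe set with the highest mean was taken. The genes were chosen because this stretch was lower in carriers of ED3 than in the other arrays of this same series, so that the differences between carriers and other flies are given below as a description, with no test.

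Carriers of ED3 were taken to have 1 copy of the interval, and there were 9 such arrays. Of these, 3 were biological replicates of Df(2L)ED3/+, and the other 6 carried ED3 with 1 further deletion each. In 5 of them both deletions were heterozygous, with Df(3R)ED10953, Df(2R)ED1770, Df(2R)ED1612, Df(3R)ED5071 or Df(3R)ED7665 as the other deletion. The sixth had Df(2L)ED4559 on the homologous chromosome, so that every gene of either interval was taken to be at 1 copy. The 35 arrays with 2 copies comprised 13 doubles of the other 6 deletions, 16 single deletions and 6 wild-type arrays. Each array held RNA of 15 whole adult females aged 0-24 h and kept at 25 °C, so that ovary, gut, fat body, muscle and nervous system were measured together. In such samples fewer cells of a type and less RNA per cell cannot be told apart. The labels name no strain for the wild type, no crossing scheme and no transgene.

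A fly that is heterozygous for a deletion has 1 template for each deleted gene in place of a pair. With no change in transcription or RNA stability its RNA would be at 50% of the 2-copy level, which is -1 on the log2 scale, and a level above that is what the term buffering in the series title refers to. The interval includes part of the long-studied Adh region, named for the gene of alcohol dehydrogenase. Its genes have unrelated roles: general transcription factors, an RNA cap enzyme, a cullin, a zinc transporter and a subunit of the dynactin motor complex stand beside genes that act in sperm or in particular neurons.

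The medians of the arrays ran from 5.50 to 5.73 in log2 units. Ovary genes varied among arrays in both groups. The germline list, the mean of 12 genes of the germ cells relative to all arrays, stood at -0.10 ± 0.52 in carriers and 0.02 ± 0.65 in 2-copy arrays (SD, n = 9 and n = 35), and its summed level ran from 12.05 to 13.77 in carriers and from 11.97 to 14.21 in 2-copy arrays. The late eggshell list stood at -0.29 ± 1.89 in carriers and 0.07 ± 2.58 in 2-copy arrays, and the vitelline membrane list at -0.38 ± 2.11 in carriers and 0.10 ± 2.09 in 2-copy arrays. Muscle genes differed little, at 0.03 ± 0.12 in carriers and -0.01 ± 0.18 in 2-copy arrays, and neuron genes stood at 0.17 ± 0.18 in carriers and -0.04 ± 0.27 in 2-copy arrays. Of 14 testis genes, 13 had a mean under 6 in these female flies.

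Among the 49 interval genes, 22 had a mean of at least 6 over all arrays, and all 22 had a lower mean in carriers. Their differences ran from -1.01 for Uxt to -0.13 for CG4168, with a median of -0.84, against a median of 0.02 over all 7485 genes past the same limit, of which 3221 had a lower mean in carriers. Expressed as a level, carriers had a median of 55.9% of the 2-copy level, from 49.8% to 91.5%. There were 16 genes below 60%, of which 1 lay under 50%, 9 between 50% and 55% and 6 between 55% and 60%. A further 4 genes lay between 60% and 70%, and 2, wwk and CG4168, above 70%. In 7 of the 22 genes every carrier lay below every 2-copy array, where this held for 0.107% of all 7485 genes. The interval was chosen on this contrast, and nothing is read from these shares. With the germline list as a covariate the median difference was -0.85, with the array-number group as a block -0.86, and within the arrays from 27 on and up to 26 it was -0.90 and -0.80.

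**Figure D1:**
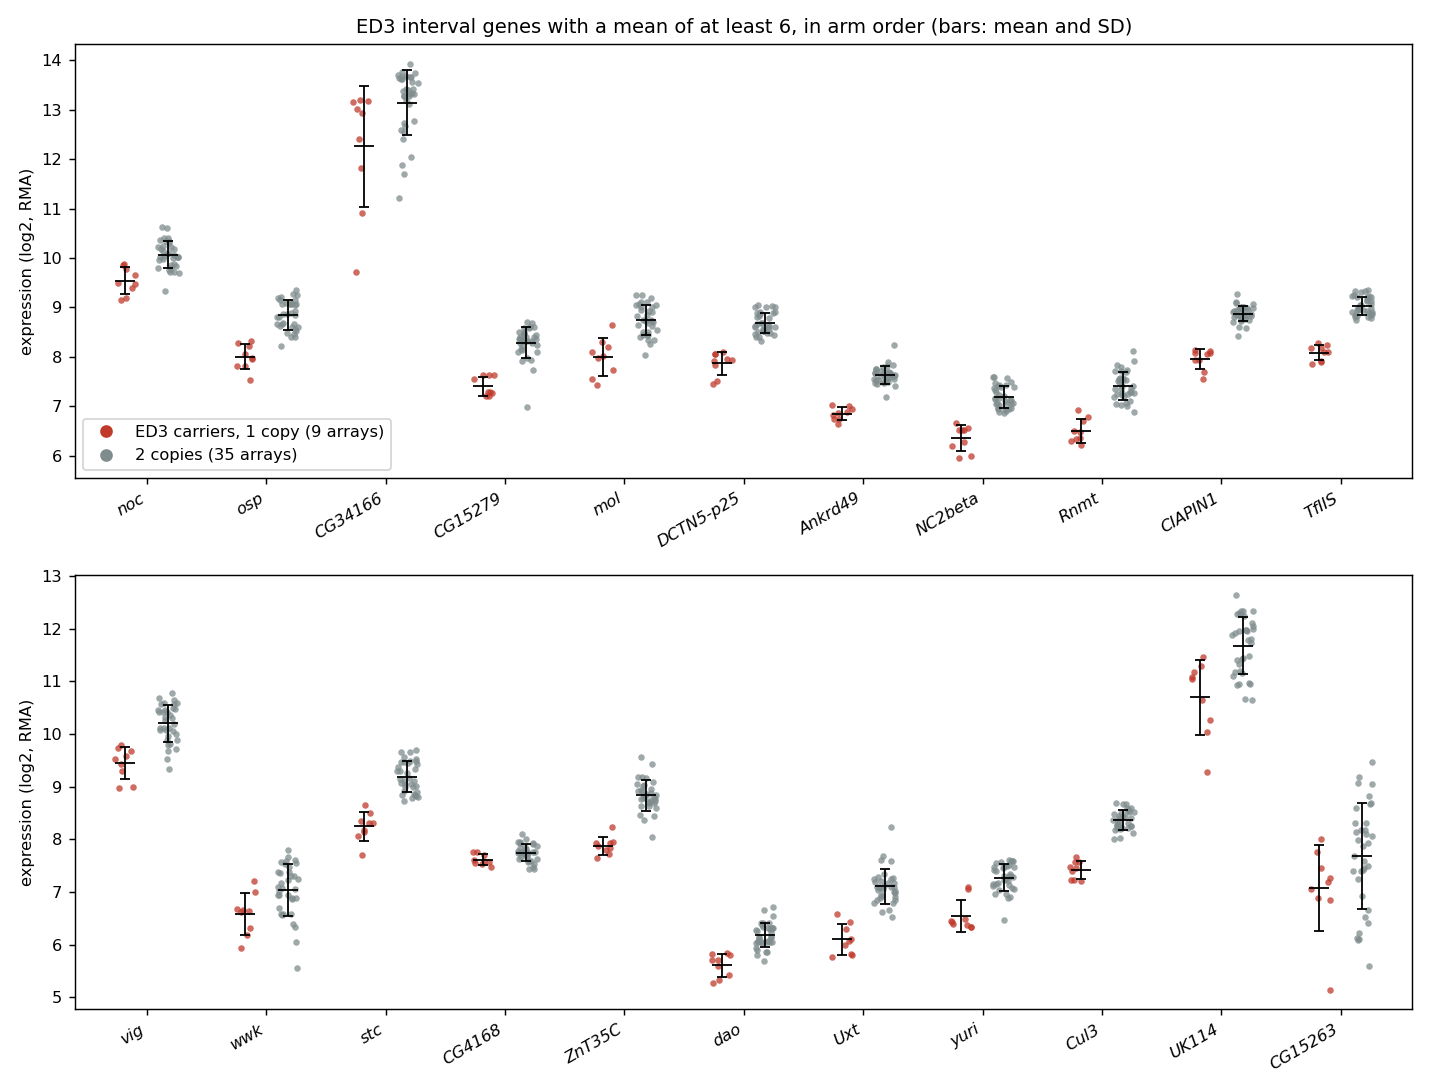
Expression (log2, RMA) of the 22 interval genes with a mean of at least 6, in arm order. Each point is 1 array, red for the 9 ED3 carriers and grey for the 35 arrays with 2 copies, and bars show mean and SD. The carriers lie lower as a group for all 22 genes, and for DCTN5-p25, Ankrd49, NC2beta, CIAPIN1, TfIIS, stc and Cul3 the points do not overlap.

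The genes of transcription and RNA handling were lower in carriers as a class, with a median level of 53.4% over 7 genes and a range from 49.8% to 69.7%. TfIIS, the elongation factor that helps stalled RNA polymerase II to resume, ran from 7.86 to 8.28 with a median of 8.11 in carriers, and from 8.75 to 9.36 with a median of 8.99 in 2-copy arrays. The groups were separated by a gap wider than the spread of the carriers. The difference was -0.95, or 51.8% of the 2-copy level. NC2beta, a subunit of negative cofactor 2 that binds the TATA-binding protein and represses initiation, averaged 6.36 ± 0.26 in carriers and 7.19 ± 0.22 in 2-copy arrays. Its highest carrier stood at 6.66 and its lowest 2-copy array at 6.86, so the groups came close without meeting. Rnmt, the methyltransferase of the mRNA cap, averaged 6.51 ± 0.24 in carriers and 7.41 ± 0.28 in 2-copy arrays, and 8 of 9 carriers lay below all 2-copy arrays.

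The zinc finger protein gene stc (shuttle craft), required in motor axon development, ran from 7.71 to 8.66 with a median of 8.30 in carriers, and from 8.72 to 9.69 with a median of 9.15 in 2-copy arrays. The highest carrier lay just under the lowest 2-copy array. The difference was -0.94, a level of 51.9%. Uxt, a prefoldin-like chaperone subunit, had the largest difference: it ran from 5.76 to 6.59 with a median of 6.07 in carriers, and from 6.52 to 8.24 with a median of 7.09 in 2-copy arrays, a level of 49.8%. The RNA-binding protein gene vig, a component of the RNA-induced silencing complex, was less separated: it ran from 8.97 to 9.80 in carriers and from 9.34 to 10.78 in 2-copy arrays, and 3 of 9 carriers lay below all 2-copy arrays. The first gene of the interval, noc (no ocelli), a zinc finger repressor of eye, limb and tracheal patterning, kept the largest share of its 2-copy level in the class. It averaged 9.54 ± 0.27 in carriers and 10.06 ± 0.27 in 2-copy arrays, a difference of -0.52 and a level of 69.7%, and only 2 carriers lay below all 2-copy arrays.

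Genes of protein turnover and metabolism lay closest to 50%, with levels of 50.9%, 51.8% and 52.6% for its 3 genes past the limit of 6. Cul3, the scaffold of a family of ubiquitin ligases, ran from 7.20 to 7.66 in carriers and from 8.0 to 8.69 in 2-copy arrays. CIAPIN1, which acts in the assembly of iron-sulfur clusters in the cytosol, ran from 7.54 to 8.13 in carriers and from 8.43 to 9.26 in 2-copy arrays. The groups of both genes were fully separated, with differences of -0.95 and -0.93. A second, dimmer probe set of CIAPIN1, with a mean of 5.70, differed by -0.56, and a second probe set of Cul3, with a mean of 4.25, by -0.08. UK114, a member of the RidA family of imine deaminases, was brighter and more scattered, from 9.29 to 11.47 with a median of 11.04 in carriers and from 10.65 to 12.64 with a median of 11.81 in 2-copy arrays. Its difference was -0.97, and 4 of 9 carriers lay below all 2-copy arrays.

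The 3 membrane protein genes past that limit had levels from 51.6% to 59.4%. ZnT35C, a zinc transporter, ran from 7.64 to 8.23 in carriers and from 8.04 to 9.57 in 2-copy arrays, and 8 of 9 carriers lay below all 2-copy arrays. Its difference was -0.96. CG15279, of the sodium-coupled transporter family, averaged 7.41 ± 0.19 in carriers and 8.29 ± 0.32 in 2-copy arrays. All 9 carriers were below the 2-copy median, yet none was below all 2-copy arrays, because wild-type replicate 4 stood at 6.98. The maturation factor gene of the dual oxidase, mol (moladietz), ran from 7.43 to 8.64 in carriers and from 8.04 to 9.26 in 2-copy arrays, with medians of 8.03 and 8.74, and the groups overlapped.

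The genes of transport and cytoskeleton had levels from 55.7% to 60.5%. DCTN5-p25, which encodes the p25 subunit of dynactin, ran from 7.45 to 8.10 in carriers and from 8.32 to 9.06 in 2-copy arrays, without overlap. The difference was -0.81. For osp (outspread), an actin-associated protein named for its wing posture phenotype, carriers ran from 7.54 to 8.33 and 2-copy arrays from 8.21 to 9.35. The medians of osp were 7.98 in carriers and 8.86 in 2-copy arrays, the difference of means was -0.85, and 6 of 9 carriers lay below all 2-copy arrays. The coiled-coil gene yuri, known from a gravity response phenotype, averaged 6.55 ± 0.30 in carriers and 7.27 ± 0.26 in 2-copy arrays.

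The remaining 6 genes with a mean of at least 6 are not placed in a class here. Ankrd49, which encodes an ankyrin repeat protein, ran from 6.65 to 7.04 in carriers and from 7.19 to 8.24 in 2-copy arrays, without overlap. CG34166 was the brightest of the 22, from 9.72 to 13.21 with a median of 12.94 in carriers and from 11.21 to 13.93 with a median of 13.34 in 2-copy arrays. Its carriers were the most scattered of all the genes, with an SD of 1.23, and the difference of -0.88 became -0.57 without ED3 replicate 3, the lowest carrier. CG15263, the last gene of the interval, likewise depended on that array. It stood at 5.15 in ED3 replicate 3 and between 6.86 and 8.01 in the other 8 carriers, against 5.60 to 9.46 in 2-copy arrays, and its difference of -0.62 became -0.38 without ED3 replicate 3. The gene dao averaged 5.61 ± 0.22 in carriers and 6.18 ± 0.23 in 2-copy arrays, a level of 67.4%.

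The smallest differences belonged to CG4168 and wwk. CG4168 averaged 7.62 ± 0.10 in carriers and 7.74 ± 0.16 in 2-copy arrays, a difference of -0.13 that was smaller than the SD of the 2-copy arrays. Its carriers ran from 7.48 to 7.77 and lay inside the range of 7.43 to 8.09 of 2-copy arrays. Its 3 probe sets disagreed: the others, with means of 5.92 and 5.53, differed by -0.03 and -0.57, and the probe set used is 1 that the array's design marks as open to hybridising with other sequences. The gene wwk averaged 6.59 ± 0.39 in carriers and 7.03 ± 0.49 in 2-copy arrays, with no carrier below all 2-copy arrays. In the 3 single carriers wwk stood at 6.66, 6.18 and 7.0, a mean of 6.61 against 6.62 ± 0.67 (SD, n = 6) in wild type. Wild-type replicates 4 and 5 were the lowest of the 6, at 5.55 and 6.05, and the single carriers have other array numbers than wild type. Doubles with ED3 lay at -0.51 relative to doubles without it. Within arrays up to 26 and from 27 on, the difference of all carriers was -0.36 and -0.41.

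Adh itself was measured only by probe sets that also match Adhr, the related gene transcribed from the same promoter. The bright probe set stood at 13.93 to 14.28 in carriers and 14.30 to 14.54 in 2-copy arrays, so that the groups did not meet although the difference was only -0.31, a level of 80.6%. It lies near the highest value in the series, 14.66, and its difference is not set against those of dimmer genes. The dimmer probe set of the same pair stood at 5.98 to 6.47 in carriers and 6.58 to 7.61 in 2-copy arrays, also without overlap, with a difference of -0.67 and a level of 62.9%. A probe set shared by CG31775 and CG42586 was scattered in both groups, from 8.12 to 12.58 in carriers and from 10.56 to 13.50 in 2-copy arrays, with a difference of -1.15. Other genes known from this region, Su(H), ck and vas among them, are not analysed here.

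The 27 interval genes with a mean under 6 showed little difference, with a median of -0.06. Of these, 22 lay within 0.3 of 0, and the differences were larger where the 2-copy mean was higher. The median difference was -0.04 over the 14 genes with a 2-copy mean between 3 and 4, -0.09 over the 8 between 4 and 5, and -0.20 over the 5 between 5 and 6.1. At the floor of the array, 1 copy and 2 copies of a silent gene cannot be told apart. The protamine genes ProtA and ProtB, which pack DNA in sperm, stood at 3.14 and 2.99 (medians of carriers) against 3.19 and 3.01 (medians of 2-copy arrays). GABA-B-R1, a receptor of the inhibitory transmitter GABA, differed by -0.16, and side-II, an axon guidance receptor, by -0.05. The exception was THG, a guanylyltransferase of histidine tRNA: it ran from 5.02 to 5.46 in carriers and from 5.59 to 6.72 in 2-copy arrays, without overlap, a level of 57.0%. THG has an all-array mean of 5.89 and lies just under the limit of 6, and dao, with 6.06, just above it. The other dim genes that differed by more than 0.3 were CG34165 (-0.57), CG15282 (-0.52), CG31832 (-0.40) and CG18636 (-0.37).

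**Figure D2:**
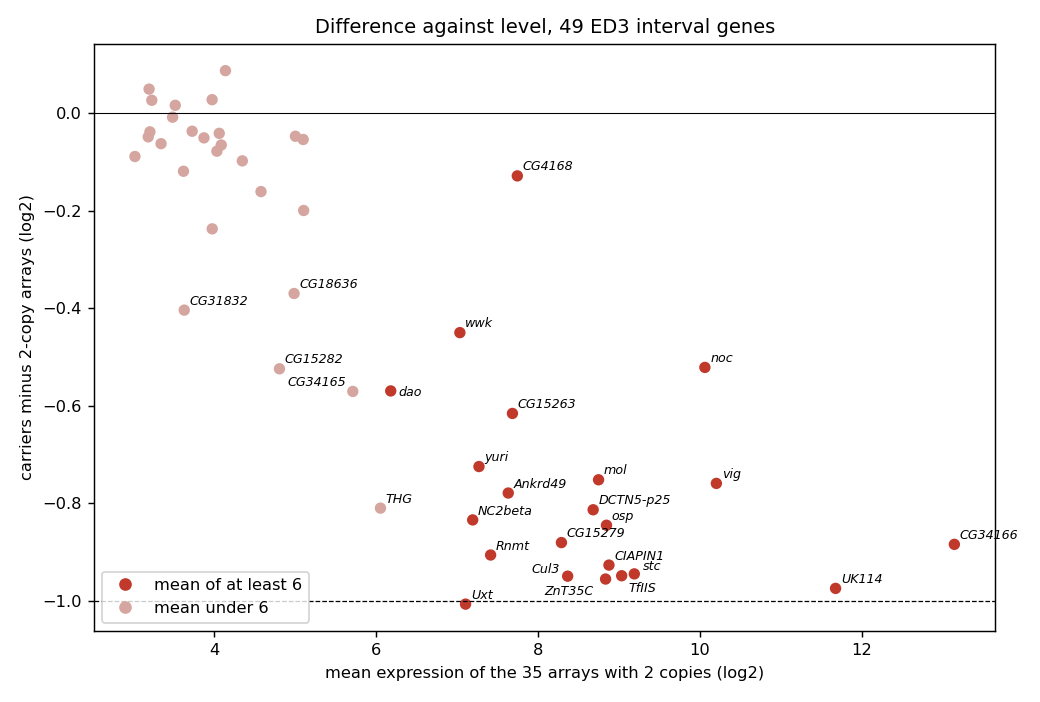
Carriers minus 2-copy arrays (log2) against the mean of the 35 arrays with 2 copies (log2) for the 49 interval genes, dark red where the mean over all arrays is at least 6 and pale red where it is under 6. The dashed line marks -1, the log2 of 1 of 2 copies. Most dim genes lie near 0 and most others between -0.7 and -1.0, with CG4168, wwk, noc, dao and CG15263 between.

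Few genes beside the interval were bright enough to show its ends. Before noc, the nearest gene on the array, CG15283, was at the floor and differed by 0.02, and elB, a zinc finger partner of noc, stood higher in carriers, at 6.86 ± 0.22 against 6.51 ± 0.28 in 2-copy arrays. After CG15263, the next 4 genes, CG15260, ms(2)35Ci, CG15262 and nht, were all dim and differed by -0.06 to -0.01. The fifth was esg (escargot), a Snail-family repressor that maintains stem cells of the gut and testis. It ran from 6.52 to 7.10 in carriers and from 4.47 to 6.11 in 2-copy arrays, so that every carrier was above every 2-copy array. The difference was 1.21. The interval's ends were set on this contrast and the genes beside it left out for not being lower, so no test of them is given here. Only elB is also counted below, as a gene of the Notch pathway list, and nothing is read from its effect.

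**Figure D3:**
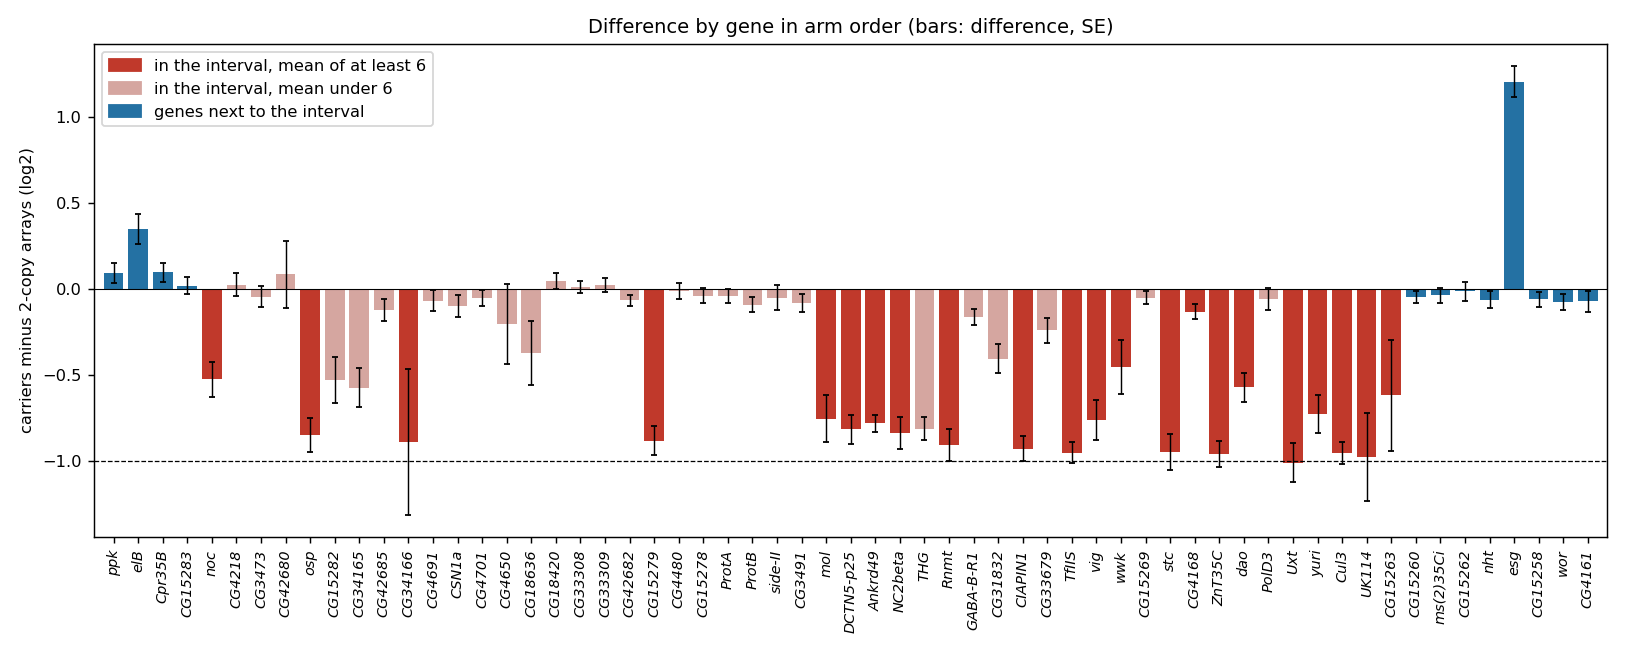
Difference of carriers minus 2-copy arrays (log2, error bars SE) for the 49 interval genes and the 4 genes before and 8 genes after them on the array, in arm order and not to scale. Dark red bars are interval genes with a mean of at least 6, pale red ones those under 6, blue ones genes outside. The bars are lower in blocks around the dim genes, and esg reaches 1.21 on the far side.

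Carriers were then compared with one another, a contrast that did not choose the genes. For each array the median over the 22 genes was taken relative to the 2-copy means. It was -0.66 in ED3 replicate 1, -0.72 in replicate 2 and -0.88 in replicate 3. Among doubles it was -0.76 with ED10953, -0.81 with ED4559, -0.79 with ED1770, -0.68 with ED1612, -0.92 with ED5071 and -0.82 with ED7665. The 9 carriers thus stood between 52.8% and 63.5% of the 2-copy level, and the 35 other arrays lay between -0.21 and 0.25. The 3 lowest carriers, those with ED5071 and ED7665 and ED3 replicate 3, had the highest array numbers, 34, 41 and 47. The other 6 carriers, arrays 12 to 26, lay between -0.81 and -0.66. Whether array number, the other deletion or the replicate accounts for this order was not tested. The comparison of doubles with singles that follows took no account of array number. Doubles averaged -0.80 ± 0.08 (SD, n = 6) and singles -0.75 ± 0.12 (SD, n = 3). The difference of -0.05 had a 95% interval of -0.20 to 0.11 and was within the spread of the arrays (exact two-sided permutation p = 0.464; the smallest these sizes allow is 0.0119).

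No interval gene was called for a difference between doubles and singles, with adjustment over all genes tested (limma, 0 of 22 called, background 0.0%). At an unadjusted p under 0.05 (limma) it was 0 of 22, against 41 of all 7485, 0.548%. The effects ran from -0.32 for dao to 1.12 for CG34166. For dao, doubles averaged 5.51 and singles 5.82, and the 95% interval of the difference, -0.65 to 0.01, included 0. For CG34166, the interval ran from -0.45 to 2.70, so these few arrays leave wide room for that gene. Each double carries a different other deletion and has no replicate, so the spread among doubles can also hold effects of that deletion and of array number. The p-values here and below measure the spread between these arrays, whatever its source.

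The further genes that work with members of the interval were looked at in 15 lists, 192 genes with a mean of at least 6, all outside the interval. They include elB, which lies beside the interval and was left out of it on this contrast. None of the 192 was called for ED3 (limma, additive fit with 7 deletion terms), and 26 of them, 13.5%, had an unadjusted p under 0.05. Outside the interval 35 of 7463 genes were called and 819 had an unadjusted p under 0.05, and over all 7485 genes 0.708% were called. Of the alcohol and aldehyde metabolism list, named for Adh, 10 genes were tested and had a median effect of 0.11. The gluconeogenic enzyme gene Pepck1 had 0.45 ± 0.14 (SE, limma adjusted p = 0.145), the largest effect of all lists, and catalase, Cat, 0.16 ± 0.07 (0.378). The 3 tested genes of the Beat and Side family, beat-IIa, beat-IV and side-VIII, had effects of 0.33, 0.32 and 0.27 with adjusted p of at least 0.153 (limma).

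No partner of the transcription genes was called. The 20 tested genes of RNA polymerase II transcription had a median of -0.05 and ran from -0.18 for the polymerase subunit gene Polr2J to 0.09, with 1 of 20 at an unadjusted p under 0.05 (limma), and NC2alpha, the other subunit of negative cofactor 2, had 0.05 ± 0.11 (SE). The 11 genes of prefoldin and the URI complex, to which Uxt belongs, had a median of -0.13 and ran from -0.16 to -0.02, so all 11 lay below 0 and none was called, with 2 at an unadjusted p under 0.05 (limma). Among 18 genes of cullin ligases and the COP9 signalosome the median was -0.04. There the substrate adaptor gene Keap1 had 0.19 ± 0.07 (SE) and Nedd8, the modifier of cullins, -0.14 ± 0.05, with limma adjusted p of 0.263 and 0.327. The 14 genes of dynein and dynactin had a median of -0.01, and the 9 of cytosolic iron-sulfur assembly -0.04.

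Zinc transport genes went both ways, from -0.26 to 0.21 over 17 genes. Zip89B, an importer, had -0.26 ± 0.10 (SE) and the metallothionein MtnA 0.17 ± 0.06, neither called (limma adjusted p = 0.272 and 0.164). The Notch pathway list, which includes elB, had a median of 0.12 over 13 genes, and mastermind, mam, a coactivator of the pathway, had 0.25 ± 0.09 (SE, limma adjusted p = 0.283). The remaining medians were 0.09 over 19 septate junction genes, 0.10 over 7 of the dual oxidase pathway, 0.06 over 10 of small RNA silencing, 0.01 over 12 of unconventional myosins and actin bundles, -0.03 over 8 of origin recognition and -0.09 over 26 germ plasm and germline regulators. Over all tested genes outside the interval the median was 0.01.

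At 2 copies, the interval genes were tested for effects of the 6 other deletions in the 35 arrays without ED3. Of 22 genes, 4 were called for ED5071 and 4 for ED7665, 18.2% in each case, where 6.93% and 14.3% of all 7485 genes were called. At an unadjusted p under 0.05 these were 6 and 11 of the 22, against 23.5% and 32.2% of all genes. None was called for ED4559, ED1612, ED1770 or ED10953 (0 of 22 each, background 1.3%, 1.02%, 1.08% and 3.07%; 3, 4, 1 and 1 at an unadjusted p under 0.05, where 14.6%, 7.64%, 7.84% and 13.6% of all genes were, limma). The gene osp rose in both, by 0.38 ± 0.11 (SE, limma adjusted p = 0.0333) for ED5071 and by 0.43 ± 0.11 (0.0128) for ED7665. NC2beta had -0.31 ± 0.08 for ED5071 and -0.31 ± 0.08 for ED7665, with limma adjusted p of 0.0217 and 0.0149, and UK114 had -0.65 ± 0.20 (0.0414) and -0.72 ± 0.20 (0.0175). CIAPIN1 was called for ED5071 at -0.26 ± 0.06 (limma adjusted p = 0.00525) and CG34166 for ED7665 at -1.07 ± 0.23 (0.00390).

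All arrays with ED5071 or ED7665 have numbers from 27 on. For osp, UK114 and NC2beta, similar levels were seen from 27 on in flies that carry neither. For osp, the 12 arrays of 2 copies with ED5071 or ED7665 averaged 9.10 ± 0.15, the 4 from 27 on without them 9.13 ± 0.05, and the 19 up to 26 averaged 8.62 ± 0.18. For UK114 the medians were 11.19 with either deletion, 10.94 from 27 on without them and 12.05 up to 26. For NC2beta the means were 7.01 ± 0.10, 7.04 ± 0.08 and 7.34 ± 0.18 in the same order. CG34166 was called for ED7665. It averaged 12.32 ± 0.73 with ED7665 and 13.04 ± 0.58 with ED5071. From 27 on without either deletion it averaged 12.73 ± 0.72, and up to 26 it averaged 13.52 ± 0.25. CIAPIN1 was called for ED5071. It averaged 8.71 ± 0.16 with ED5071, 8.87 ± 0.14 from 27 on without either deletion and 8.95 ± 0.12 up to 26. With the array-number group as a block none of the 8 calls was made, the osp effect of ED5071 was -0.05, and the UK114 effects were 0.27 for ED5071 and 0.20 for ED7665. Among the 22 wild-type and single-deletion arrays without ED3, 17 calls were made with the replicate number as a block and 0 without it. Replicates 1 and 2 of ED5071 and ED7665 have array numbers from 27 on, where those of the other deletions have numbers up to 26. The replicate block thus does not separate ED5071 and ED7665 from array number. In the main fit, the count was 13 without wild-type replicate 4 or without ED1770 replicate 3, and 5 without ED5071 replicate 1.

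**Figure D4:**
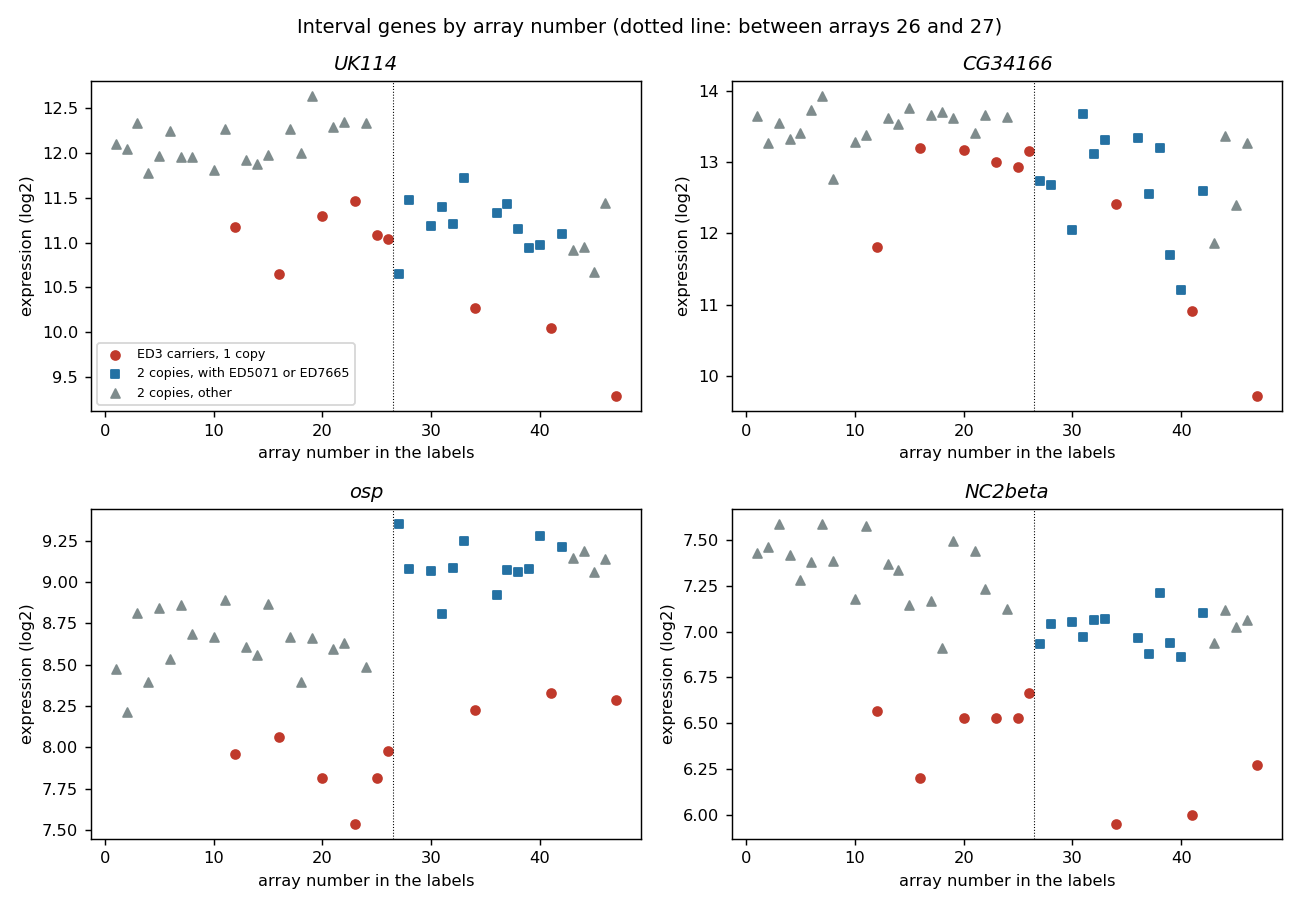
Expression (log2) of UK114, CG34166, osp and NC2beta in each of the 44 arrays against the array number in the labels, red circles for ED3 carriers, blue squares for 2-copy arrays with ED5071 or ED7665 and grey triangles for the other 2-copy arrays. The dotted line lies between arrays 26 and 27. Right of it the grey triangles lie among the blue squares, and carriers lie below the 2-copy arrays of their own side for UK114, osp and NC2beta.

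The ED3 difference itself was then asked about on either side of array 26, where 6 carriers stand against 19 arrays and 3 carriers against 16. None of the 22 genes was called for a difference in its ED3 effect between the sides (limma interaction, 0 of 22, background 0.0%). At an unadjusted p under 0.05 (limma) there were 2 of 22, against 124 of all 7485, 1.66%. Those 2 were CG34166, with -0.94 ± 0.39 (SE, effect from 27 on minus effect up to 26), and CIAPIN1, with -0.21 ± 0.10, both with a limma adjusted p that rounds to 1. Within the sides, the level of CIAPIN1 in carriers was 47.8% from 27 on and 54.0% up to 26, and that of UK114 40.8% and 50.2%. TfIIS stood at 52.7% and 52.6%, Cul3 at 52.5% and 51.9%, and noc at 70.4% and 68.1%, so these moved by less than 3 points.

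The interval genes varied with the germline list in either direction, as most genes on the array did. In the 35 arrays of 2 copies, the slope of each gene on the germline list was fitted beside the other 6 deletions; this fit was added after the data were seen. It was called in 15 of 22 genes, 68.2%, against 69.7% of all 7485 genes, a share near the background. At an unadjusted p under 0.05 it was 17 of 22, against 72.0% of all genes. Of all genes, 36.5% were called higher and 33.2% lower, against 5 and 10 of the 22. Among the 22 wild-type and single-deletion arrays without ED3 the count was 14, and 5 with the replicate number as a block; those 5 were noc, DCTN5-p25, Rnmt, stc and yuri. The genes that rose with the list were Rnmt (0.43 ± 0.04 per unit of the list, SE), stc (0.41 ± 0.03), Uxt (0.29 ± 0.08), TfIIS (0.26 ± 0.03) and ZnT35C (0.20 ± 0.07). Those that went down were CG15263 (-0.80 ± 0.25), UK114 (-0.39 ± 0.11), vig (-0.34 ± 0.08), noc (-0.30 ± 0.06), yuri (-0.26 ± 0.05), CG15279 (-0.26 ± 0.09), DCTN5-p25 (-0.25 ± 0.04), dao (-0.19 ± 0.06), NC2beta (-0.12 ± 0.05) and CG4168 (-0.11 ± 0.04), with limma adjusted p of at most 0.0321. Of the transcription and RNA class, Rnmt, stc, Uxt and TfIIS thus rose with the list, while noc, vig and NC2beta went the other way.

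The slopes at 1 copy rest on 9 carriers. Fitted without other terms, 19 of 22 genes had a slope of the same sign at 1 and 2 copies, and ZnT35C (-0.01 at 1 copy, 0.17 at 2 copies), Cul3 (-0.09 and 0.05) and wwk (0.06 and -0.08) had opposite signs. The carrier with the lowest germline list, ED3 replicate 1, had 7.71 for stc, and the one with the highest, ED3 replicate 3, had 8.66. Wild-type replicates 1 and 4, the ends of the 2-copy arrays, had 8.72 and 9.66. The difference between these ends was thus as wide as the step between 1 and 2 copies. For DCTN5-p25 the same 4 arrays had 8.06 and 7.45 at 1 copy, and 9.06 and 8.56 at 2 copies, in the opposite direction. The slope at 1 copy minus that at 2 copies was not called for any gene (limma, 0 of 22, background 0.0%; 0 of 22 at an unadjusted p under 0.05, against 190 of all 7485, 2.54%). It was 0.09 for stc (95% interval -0.08 to 0.26), 0.00 for TfIIS (-0.15 to 0.14) and -0.11 for DCTN5-p25 (-0.29 to 0.08). For CG15263 the interval ran from -1.37 to 1.06, so a difference in slope of either sign could be missed with these arrays.

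**Figure D5:**
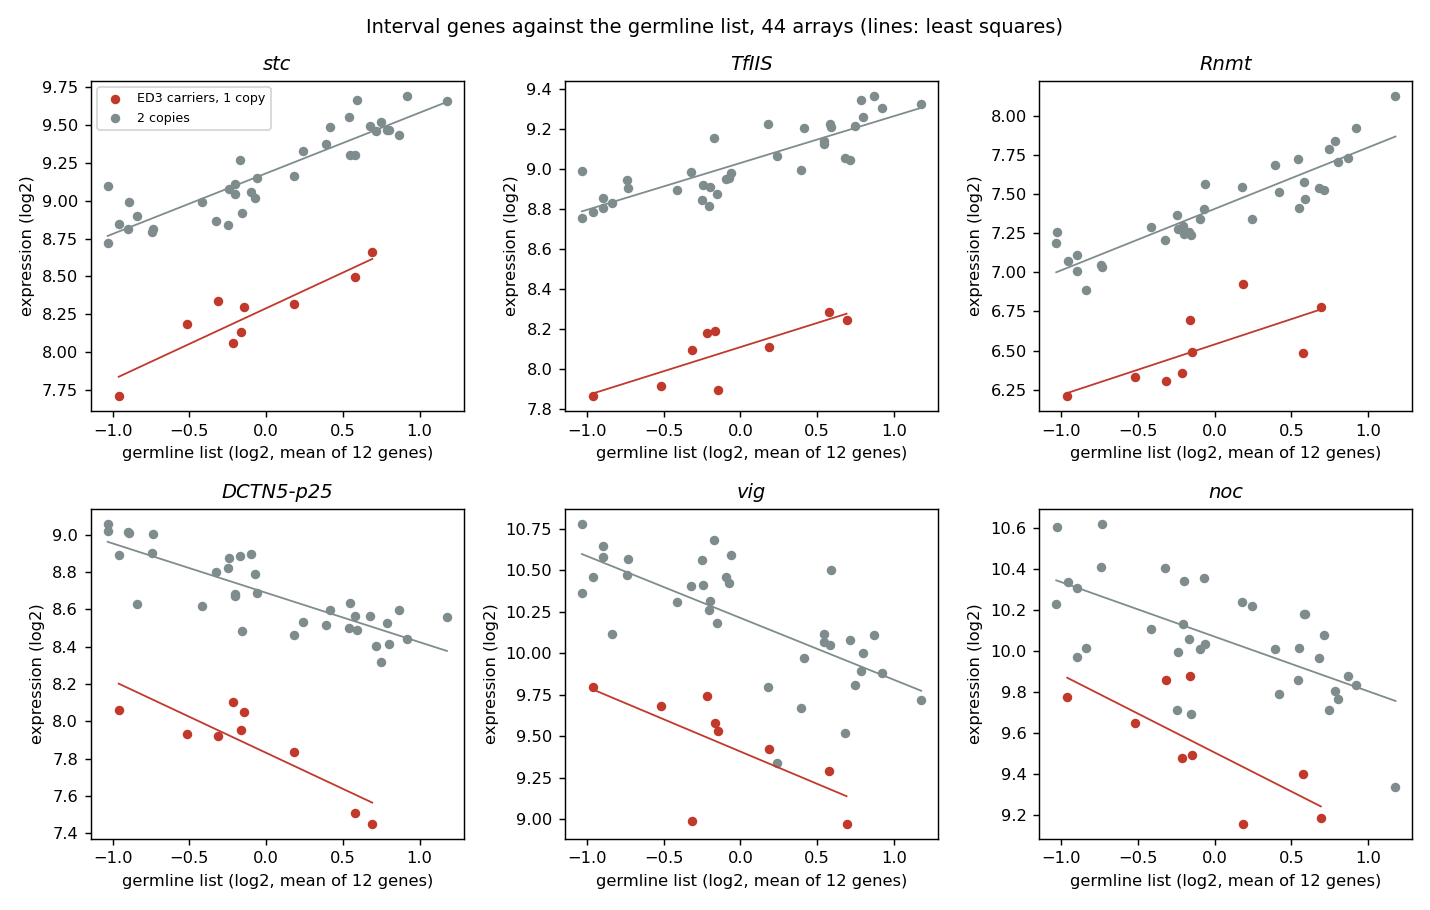
Expression (log2) of stc, TfIIS, Rnmt, DCTN5-p25, vig and noc against the germline list (log2, mean of 12 genes relative to all arrays) in the 44 arrays, red for ED3 carriers and grey for 2-copy arrays, with least-squares lines. The upper genes go up with the list and the lower ones go down, and the carriers run below the 2-copy arrays across the range they share, with some overlap for vig and noc.

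Spread among arrays differed from gene to gene more than between copy numbers. The SD of the 22 genes had a median of 0.26 among carriers and 0.29 among 2-copy arrays, against 0.22 and 0.26 over all 7485 genes. UK114, CG34166 and CG15263 had the widest spread, with SDs of 0.71, 1.23 and 0.82 among carriers and 0.55, 0.65 and 1.0 among 2-copy arrays, where 8.02% of all genes had a 2-copy SD of at least 0.55. In these 3 genes the comparison of single carriers with wild type gave lower levels, 37%, 25.4% and 39.8%, than doubles with ED3 against doubles without it, 54.5%, 76.8% and 96.0%. The wild-type arrays have numbers 1 to 6, whereas ED3 replicate 3, a single carrier, is array 47. That array had the lowest carrier values of these 3 genes, 9.29, 9.72 and 5.15. Whether array number or this array accounts for the lower levels was not tested. Doubles with and without ED3 are also spread unlike over the array numbers, which their comparison did not take into account. Levels of all carriers within arrays up to 26 and from 27 on were 50.2% and 40.8% for UK114. For CG34166 they were 64.1% and 31.2%, and for CG15263 66.8% and 52.5%. TfIIS, at 52.9% and 52.3%, and Cul3, at 55.2% and 52.5%, were alike in singles against wild type and in doubles against doubles. Against wild type alone, 6 of the 22 genes were at or below -1 in the single carriers, a comparison with the same unlike array numbers.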

How the data were processed

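RNA was purified with TRIzol and an RNeasy kit and hybridised with biotin label to Affymetrix arrays, per the labels' protocols. The deposited values are log2 expression per probe set, made with RMA per the submitters' processing notes; the version, annotation or build is not given in the sources used here, and the log base is read from the range of 2.58 to 14.66. RMA can compress low values, and how far this lowers the differences of dim genes was not tested. The 44 arrays limit the precision.

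Of 18952 probe sets, 13647 named 1 gene, 402 several and 4903 none; 13537 were placed on an arm through RefSeq's Release 6 gene table, used for names and order only. Genes with a mean of at least 6 entered limma 3.58.1 (R 4.3.3; moderated, with a trend on the mean; Benjamini-Hochberg adjustment over all genes, threshold 0.05), and the fits were tested on simulated arrays of this design. Group medians were compared by exact permutation (scipy 1.17.1, Python 3.11.15).

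The interval, its genes and the lists were chosen with earlier results of these data known, and 6 of the 15 partner lists and the germline slopes were added after the data were seen. Named were the genes of interest in the Adh region, the first and last gene, the 5 largest and 5 smallest differences, and genes called in the tests; any further gene was picked with its values known. The labels tie no replicate number to a shared animal, litter or day, and the main fits have no block on it. Deviations of same-numbered replicates nevertheless correlated with those of ED3 by over 0.1 in 14 of 19 pairs (range -0.58 to 0.84). Among these were all pairs of ED10953, ED1612 and ED1770 and 1 of 3 of wild type. The main p-values take no account of this, and values with a replicate block stand beside the counts they change. Alternatives were filters, probe set means, centring, blocks, covariates, subsets and leaving out each array. No sequences are shown.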

Additional observations from a re-analysis of the deposited data

Results flagged for a closer look

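Among the values of interval genes, 50 groups of 4 to 10 arrays were examined for an array far from the others, and 4 were found; chance gives about 1 in 20. CG15263 stood at 5.148 in ED3 replicate 3, the lowest of the 9 carriers, where the next was 6.857. Ankrd49 stood at 8.244 in wild-type replicate 4, the highest of the 6 wild-type arrays, where the next was 7.844. CIAPIN1 stood at 9.263 in wild-type replicate 1, the highest of the 6, where the next was 9.062. The bright probe set of Adh and Adhr stood at 14.40 in wild-type replicate 4, the lowest of the 6, where the next was 14.51.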

How the results depend on the processing

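The median difference of the 22 interval genes, -0.84, was -0.40 without the filter on dim genes, which adds 27 genes near the floor of the array. Among wild-type and single-deletion arrays alone with a replicate block it was -0.93, and it ran from -0.85 to -0.78 with 1 carrier or wild-type array left out. Over the 22 single genes, 649 of 657 values under alternatives moved by less than the gene's SD among carriers, 8 moved further and none changed sign. This SD was widest for CG34166 and CG15263, so wide moves count as small there. Their differences ran from -1.98 to -0.38 and from -1.33 to -0.06 over the alternatives other than leaving out 1 array. Single carriers against wild type gave -1.0 for Ankrd49, -0.56 for CG15279, -1.37 for Uxt, -1.17 for ZnT35C and -0.01 for wwk; the mean over probe sets gave -0.24 for CG4168 and -0.52 for Cul3; arrays from 27 on gave -0.01 for CG4168. The partner lists had 0 calls in the main setting, 3 with the array-number block, 3 with the germline list as a covariate, and 1 each with centred arrays, with the replicate block and without the doubles of ED4559 with ED1770 and ED1612; leaving out 1 array gave 0 to 1. The effects of the other deletions at 2 copies gave 8 calls, 0 with the array-number block, 17 with the replicate block, 0 in the same 22 arrays with no replicate block, 15 without wild-type replicates 4 and 5, and 5 to 13 with 1 array left out. With the array-number block the osp effect of ED5071 was -0.050, and those of UK114 were 0.265 for ED5071 and 0.196 for ED7665. The germline slope gave 15 calls, 5 with the replicate block, 14 in the same arrays with no block and 14 to 17 with 1 array left out. Doubles against singles, the interaction with array number and the difference of germline slopes gave 0 calls in each setting run. The cause of these changes was not tested. Dim genes near the floor limit what 1 copy can show.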
